A study of Sus scrofa with 22 samples.

Results

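The 9 genes described here encode the enzymes of mitochondrial fatty acid beta-oxidation: ACADVL, ACADL, ACADM, ACADS, HADHA, HADHB, HADH, ACAA2 and ECHS1. They were taken as every probe set (a group of oligonucleotide probes read as 1 value) that the array's annotation pairs with exactly 1 of these symbols. All 9 were found, with 12 probe sets among the 23999 of the array, where 6765 genes have a symbol of their own. ACADVL had 2 probe sets, HADHB had 3, and the other 7 genes had 1 each. All 12 were bright enough to be tested.

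Peripheral blood mononuclear cells, the lymphocytes and monocytes that float on a density gradient, were taken from female and male pigs of the Mini Pig breed, and their RNA was hybridised to Affymetrix porcine arrays, 1 array per blood sample. The first group of 10 arrays (5 females and 5 males) was sampled at time 0, before the diets. At 9 months, 3 groups of 4 arrays (2 females and 2 males each) had been fed a control chow with 5% beef tallow, a high-fat chow with 20% beef tallow, or the high-fat chow plus resveratrol, a plant polyphenol, at a daily 8 mg/kg. The study asked what dietary resveratrol does to gene expression in these cells under a fat-rich diet, and whether the sexes differ at the outset. No genetic change was described for any group, and ages were not given in the sources used here. The 22 arrays came from 20 pigs, since control pigs 8 and 25 were sampled at both times.

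Beta-oxidation shortens a fatty acid bound to coenzyme A from its carboxyl end, in a cycle of 4 reactions that yields acetyl-CoA for the citric acid cycle and electrons for the respiratory chain. The first reaction belongs to acyl-CoA dehydrogenases that divide the work by chain length (ACADVL very long, ACADL long, ACADM medium, ACADS short) and pass their electrons to the electron transfer flavoprotein. Long chains then go to the trifunctional protein of the inner membrane, whose alpha subunit HADHA carries the hydratase and 3-hydroxyacyl-CoA dehydrogenase sites and whose beta subunit HADHB carries the thiolase site. Shorter chains use the matrix enzymes ECHS1 (hydratase), HADH (3-hydroxyacyl-CoA dehydrogenase) and ACAA2 (thiolase). Resting lymphocytes and monocytes draw part of their energy from this route.

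Values are log2 of the deposited intensities, so a difference of 1 is a doubling. A difference is said to pass where its limma p, adjusted by Benjamini-Hochberg over all 17240 probe sets tested, was under 0.05. Marker list means used only genes bright enough to be tested: 8 of 12 T cell and 10 of 14 monocyte genes. A high mean therefore does not show that all markers were detected. The mean log2 level of the T cell list ran from 10.1 to 11.0 over the arrays and that of the monocyte list from 8.79 to 9.67. Among lists of other blood cells, that of granulocytes ran from 5.11 to 6.68, of platelets from 6.26 to 9.78 and of erythroid cells from 8.13 to 10.95. The lowest platelet mean was that of control female 8 at 9 months. The monocyte mean minus the T cell mean, a measure of the cell mix, averaged -1.60 ± 0.31 over the 10 time 0 arrays. In the 4 arrays of each diet at 9 months it averaged -0.89 ± 0.15 for control chow, -1.45 ± 0.35 for high-fat chow and -1.16 ± 0.71 where resveratrol was added (all ± SD). The poly-A spike-ins, added before labelling, parted the arrays within each time: time 0 females 6 and 10 stood at 8.28 and 8.32 against 6.96 to 7.20 in the other 8 time 0 arrays, and 5 arrays of 9 months lay at 9.00 to 9.58 against 7.67 to 8.21 in the other 7. These sets are called labelling sets below, which is an inference from the spike-ins. In a mixed sample such as this, fewer cells of a type and less RNA per cell cannot be told apart.

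**Figure D1:**
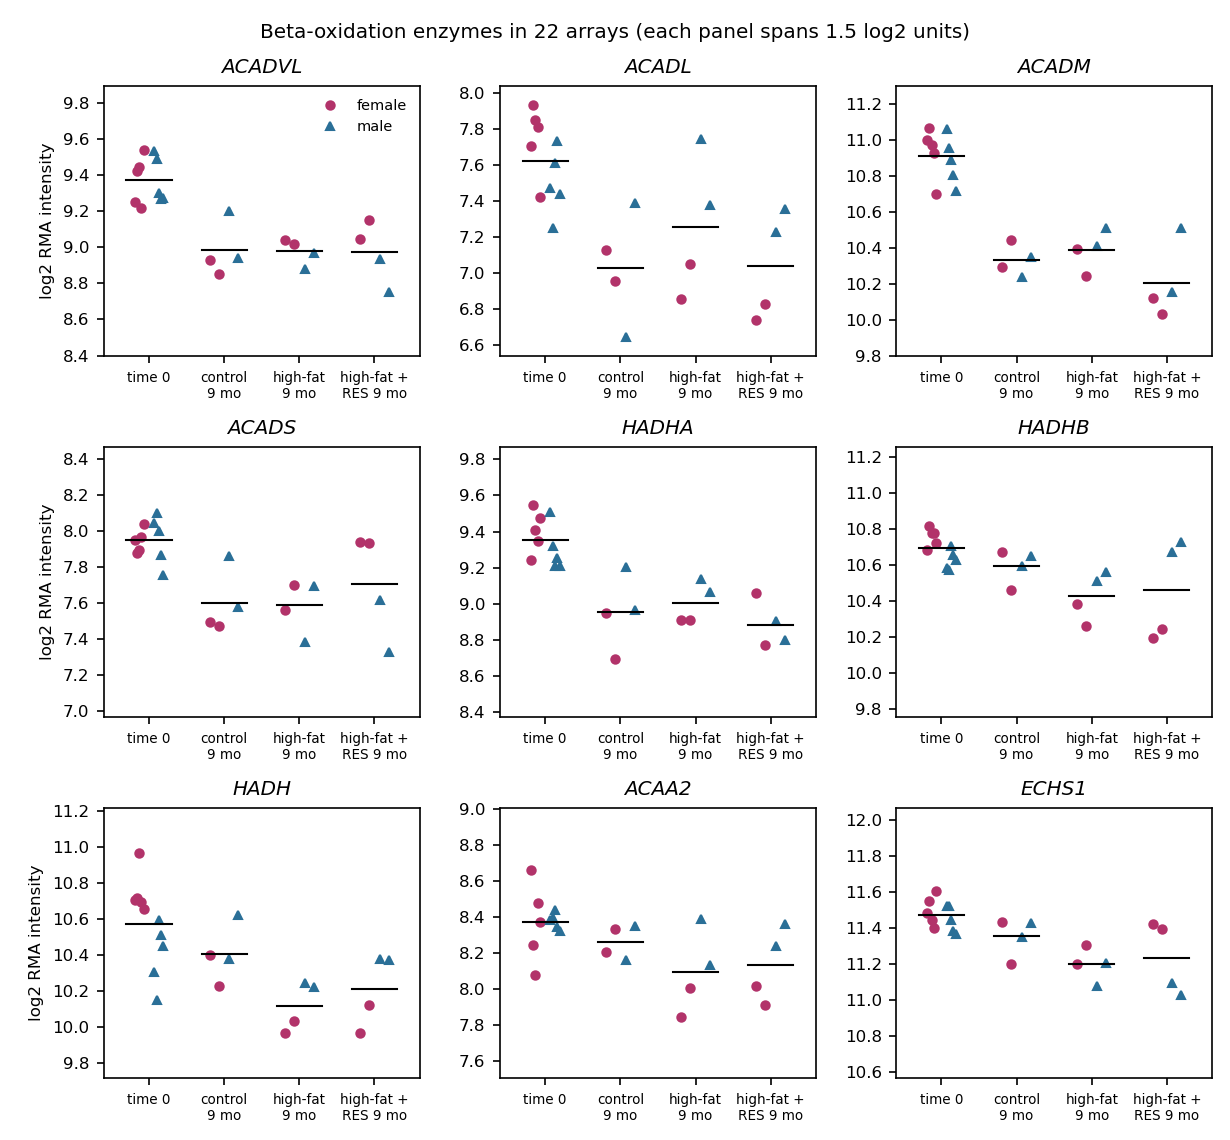
Log2 intensity (y axis) of the 9 enzymes in each of the 22 arrays, by condition (x axis), with females as circles, males as triangles and the condition mean as a bar; HADHB and ACADVL are shown by their brightest probe set. For ACADM, ACADVL and HADHA, all 12 arrays of 9 months lie below all 10 of time 0.

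The enzymes of the first step were lower on the control diet at 9 months than at time 0. All 4 acyl-CoA dehydrogenases fell, and so did HADHA of the steps that follow, while HADHB, HADH, ACAA2 and ECHS1 did not pass. That is 5 of 12 probe sets lower and 0 higher, where 19.1% of all probe sets tested were lower. By gene, with the brightest probe set of each, all 9 differences were negative, with a median of -0.35 against -0.04 over the 5906 genes tested. With 2 females and 2 males on the control diet, the number of arrays limits the precision.

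ACADM, the medium-chain enzyme, gave the clearest change (probe set Ssc_142_1_S1_at). Its log2 level at time 0 ran from 10.70 to 11.07 with a median of 10.94 (n = 10). On the control diet at 9 months it was 10.29 and 10.44 in the females and 10.24 and 10.35 in the males. The groups did not overlap, as was so for 8.64% of all probe sets in this direction. The difference was -0.58 (SE 0.088, adjusted p = 5.69e-05), so the level fell by 33.0%. On the high-fat diet it was 10.39, 10.24, 10.41 and 10.51, and with resveratrol 10.12, 10.03, 10.15 and 10.51. The 3 diets therefore lay together, each below the lowest time 0 array. In the pigs sampled at both times, the 9-month value minus the time 0 value was -0.62 in pig 8 and -0.37 in pig 25.

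ACADVL, which begins the breakdown of very long chains, also parted the groups at its brighter probe set, Ssc_16637_1_S1_at. Its levels ran from 9.22 to 9.54 with a median of 9.36 at time 0 (n = 10), and were 8.93 and 8.86 in the control females and 9.20 and 8.94 in the control males at 9 months. The highest of these, male 16 (9.20), lay close under the lowest time 0 array. The difference was -0.39 (SE 0.085, adjusted p = 0.00132), and the level fell by 23.8%. The dimmer ACADVL probe set, Ssc_21669_1_S1_at, differed by -0.21 (SE 0.18, adjusted p = 0.382), and its time 0 arrays spread from 7.38 to 8.63. The lowest 2 of them, 7.38 and 7.71, were females 6 and 10, the pair of high spike-in; without both, the difference was -0.39 (adjusted p = 0.0239). After centring on the 8 groups, the ACADVL probe sets had r = 0.56 over the 22 arrays.

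ACADL, the long-chain enzyme, fell by 0.59 on the log2 scale (SE 0.16, adjusted p = 0.00708; probe set Ssc_14530_1_S1_at). Levels at time 0 ran from 7.25 to 7.93 with a median of 7.66 (n = 10), and at 9 months on the control diet they were 7.13 and 6.96 in females and 6.65 and 7.39 in males. Male 25 (7.39) lay above the lowest time 0 array, so the groups overlapped, and male 16 was the lowest of all 22 arrays. Within the pigs sampled at both times, ACADL changed by -0.97 in pig 8 but by -0.05 in pig 25. ACADVL Ssc_16637_1_S1_at, ACADS and HADHA were lower at 9 months in both pigs. Without male 16 the difference was -0.44 (adjusted p = 0.0538) and no longer passed. With array weights it was -0.38 (adjusted p = 0.0288), and with the monocyte minus T cell balance as a covariate -0.93 (adjusted p = 0.000231).

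ACADS, the short-chain enzyme, differed by -0.35 (SE 0.10, adjusted p = 0.0121; probe set Ssc_14531_1_S1_at). It ran from 7.75 to 8.10 with a median of 7.96 at time 0 (n = 10), against 7.49 and 7.47 in the control females and 7.86 and 7.58 in the control males at 9 months. Only male 16 (7.86) reached into the time 0 range. The call was lost without female 18 (-0.30, adjusted p = 0.0538), without female 8 (-0.29, adjusted p = 0.0608), and with the monocyte minus T cell balance as a covariate (-0.16, adjusted p = 0.285).

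HADHA and HADHB, the alpha and beta subunits of 1 protein complex, were read by 1 and 3 probe sets. HADHA (Ssc_11580_1_S1_at) ran from 9.21 to 9.55 with a median of 9.33 at time 0 (n = 10). On the control diet at 9 months it was 8.95 and 8.69 in females and 9.20 and 8.97 in males, all below time 0. The highest of these, male 16 (9.2035), lay just under the lowest time 0 array (9.2074). The difference was -0.40 (SE 0.090, adjusted p = 0.00193), and the level fell by 24.2%. HADHB at its brightest probe set, Ssc_11785_1_A1_at, ran from 10.57 to 10.82 at time 0 with a median of 10.69 (n = 10), and was 10.67 and 10.46 in the control females and 10.59 and 10.65 in the control males, all inside the time 0 range except for female 8. That difference was -0.10 (SE 0.088, adjusted p = 0.410), and its 95% interval reached from -0.28 to 0.09. At Ssc_23043_1_S1_at the difference was 0.08 (SE 0.092, adjusted p = 0.509) and at Ssc_11785_2_A1_at -0.04 (SE 0.092, adjusted p = 0.790). Whether the change in HADHA differed from that in HADHB was not tested.

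The matrix enzymes of the later steps did not pass either. HADH, the dehydrogenase for shorter chains (Ssc_12507_1_S1_at), was -0.17 (SE 0.12, adjusted p = 0.290), ACAA2, the matrix thiolase (Ssc_1856_1_A1_at), was -0.11 (SE 0.096, adjusted p = 0.399), and ECHS1, the matrix hydratase (Ssc_7032_1_S1_at), was -0.12 (SE 0.073, adjusted p = 0.216). Their 95% intervals reached down to -0.42, -0.31 and -0.27, so a fall of the size seen in HADHA lies inside the interval for HADH alone. Within pig 8, HADH, ACAA2 and ECHS1 changed by -0.49, 0.09 and -0.35, and within pig 25 by 0.17, 0.03 and 0.06. Set against the mean of the 3 diets at 9 months, in place of the control diet, HADHB Ssc_11785_1_A1_at (-0.20, adjusted p = 0.0145), HADH (-0.33, adjusted p = 0.00358), ACAA2 (-0.21, adjusted p = 0.0172) and ECHS1 (-0.21, adjusted p = 0.00238) passed as well, 9 of 12 probe sets in all; that fit called 8547 of 17240 probe sets (49.6%) in either direction, against 6026 with the control diet alone. HADHB and HADH also passed with the monocyte minus T cell balance as a covariate (-0.32, adjusted p = 0.00409, and -0.44, adjusted p = 0.00567).

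**Figure D2:**
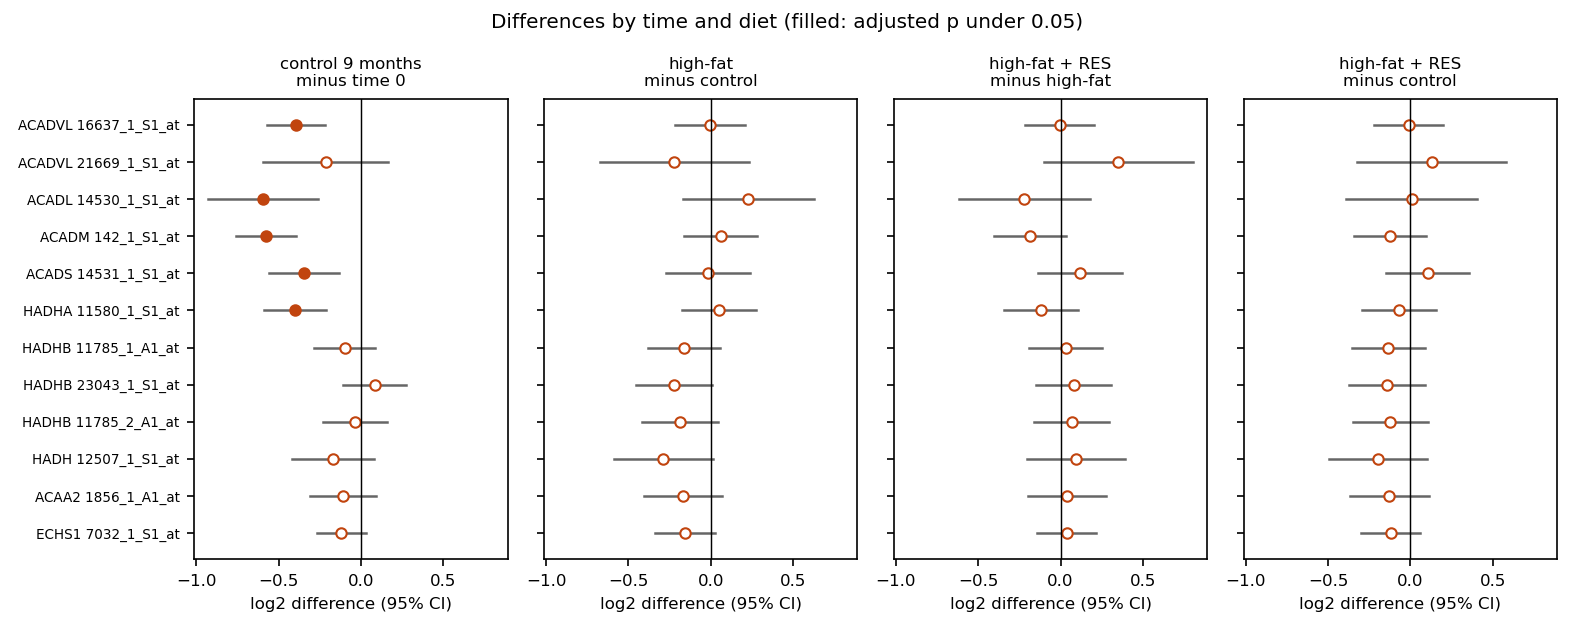
Log2 differences (x axis) with 95% confidence intervals for the 12 probe sets (y axis) in 4 comparisons, with filled points past the threshold. Only the first panel, control diet at 9 months minus time 0, has filled points: the 4 acyl-CoA dehydrogenases (ACADVL at 1 of its 2 probe sets) and HADHA.

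Over all 12 arrays of 9 months, whatever the diet, ACADM, ACADVL Ssc_16637_1_S1_at and HADHA lay below every one of the 10 time 0 arrays, which held for 641 probe sets (3.72%) in all. This includes the high-fat arrays, whose monocyte minus T cell balance ran from -1.77 to -0.99, beside -2.09 to -0.99 at time 0, -1.06 to -0.70 on the control diet and -1.83 to -0.52 with resveratrol. Other measures moved with time too. Of the cell markers, 4 of 8 T cell genes were lower (median -0.42), as were CD79B, the 1 B cell marker tested (-0.70), 2 of 4 NK and cytotoxic genes and 3 of 3 erythroid genes (median -1.27), while 2 of 10 monocyte genes were higher (median 0.19) and 0 of 5 granulocyte genes passed. The T cell mean ran from 10.57 to 10.97 at time 0 and from 10.22 to 10.43 on the control diet, and the erythroid mean from 9.26 to 10.95 and from 8.13 to 9.64. On the high-fat diet the T cell mean ran from 10.22 to 10.55, below every time 0 array, and the erythroid mean from 8.43 to 10.60. The high-fat arrays were thus near time 0 in the balance but not in the T cell mean. The actin 3' minus 5' difference, a measure of RNA integrity, was 1.42 ± 0.50 (SD, n = 10) and 1.95 ± 0.65 (SD, n = 4). The spike-ins ran from 6.96 to 8.32 at time 0 and from 7.67 to 9.58 at 9 months. With labelling set as a random block, 5 members passed, as without it, and 29.2% of all probe sets did. Each labelling set lies within 1 time, so that block cannot take out a labelling difference between the times. The part of these measures in the falls was not tested, beyond the covariate values above.

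Around the cycle, the same comparison touched the enzymes that take electrons from the acyl-CoA dehydrogenases. All 3 genes of that relay were lower without overlap: ETFA and ETFB, the subunits of the electron transfer flavoprotein, by -0.59 (adjusted p = 0.000682) and -0.35 (adjusted p = 0.000646), and ETFDH, which hands the electrons to ubiquinone, by -0.43 (adjusted p = 0.000354). In their list of 13 electron transfer and side enzymes, HSD17B10 (-0.35, adjusted p = 0.00282) and ACADSB (-0.27, adjusted p = 0.0133), which act on branched-chain intermediates, were lower as well, 5 lower and 0 higher in all, with a median of -0.27. Of all probe sets, 19.1% passed as lower and 8.64% were lower without overlap. The calls of HSD17B10 (-0.24, adjusted p = 0.0662) and ACADSB (-0.21, adjusted p = 0.113) did not hold with the monocyte minus T cell balance as a covariate.

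Of the carnitine shuttle, which brings long chains into mitochondria, 2 of 6 genes were lower and 0 higher, beside 19.1% of all probe sets lower. CPT1A, the gate of the shuttle, fell by 1.04 (adjusted p = 0.000172), and SLC25A20, the carrier of the inner membrane, by 0.82 (adjusted p = 6.76e-05). The CPT1A value rests on the control diet: against the mean of the 3 diets it was -0.29 (adjusted p = 0.0686), and SLC25A20 was -0.39 (adjusted p = 0.00143). In peroxisomes, which run a cycle of their own, HSD17B4 (-0.45, adjusted p = 0.00101) and the transporter ABCD3 (-0.83, adjusted p = 0.000189) were lower, and the thiolase ACAA1 was higher (0.24, adjusted p = 0.0258), among 6 genes tested. ACAA1 did not pass without control male 16 (0.23, adjusted p = 0.0678) or male 25 (0.19, adjusted p = 0.116), nor with the balance as a covariate (0.13, adjusted p = 0.318).

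The citric acid cycle, which burns the acetyl-CoA, had 10 of 16 genes lower and 1 higher (median -0.27), beside 19.1% of all probe sets lower. Citrate synthase CS was -0.46 (adjusted p = 2.00e-05), the succinate dehydrogenase subunits SDHC and SDHA -0.52 (adjusted p = 8.29e-05) and -0.32 (adjusted p = 0.00245), SUCLG2 -0.49 (adjusted p = 0.000143) and malate dehydrogenase MDH2 -0.45 (adjusted p = 0.00105). SDHA was -0.23 (adjusted p = 0.0535) with the balance as a covariate. Among 5 regulators, the mitochondrial deacetylase SIRT3 (-0.58, adjusted p = 0.00203, and -0.39 with array weights) and the fatty acid receptor PPARD (-0.34, adjusted p = 0.0398) were lower, and PRKAA1, a catalytic subunit of AMPK, was higher (0.48, adjusted p = 0.00268). PPARD passed in 6 of 14 fits that left out 1 array, and was -0.03 (adjusted p = 0.851) with the balance as a covariate. OXCT1, which activates ketone bodies for oxidation, was higher (0.46, adjusted p = 0.0111), 1 of 2 genes tested in its list; with the balance as a covariate it was 0.17 (adjusted p = 0.338).

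**Figure D3:**
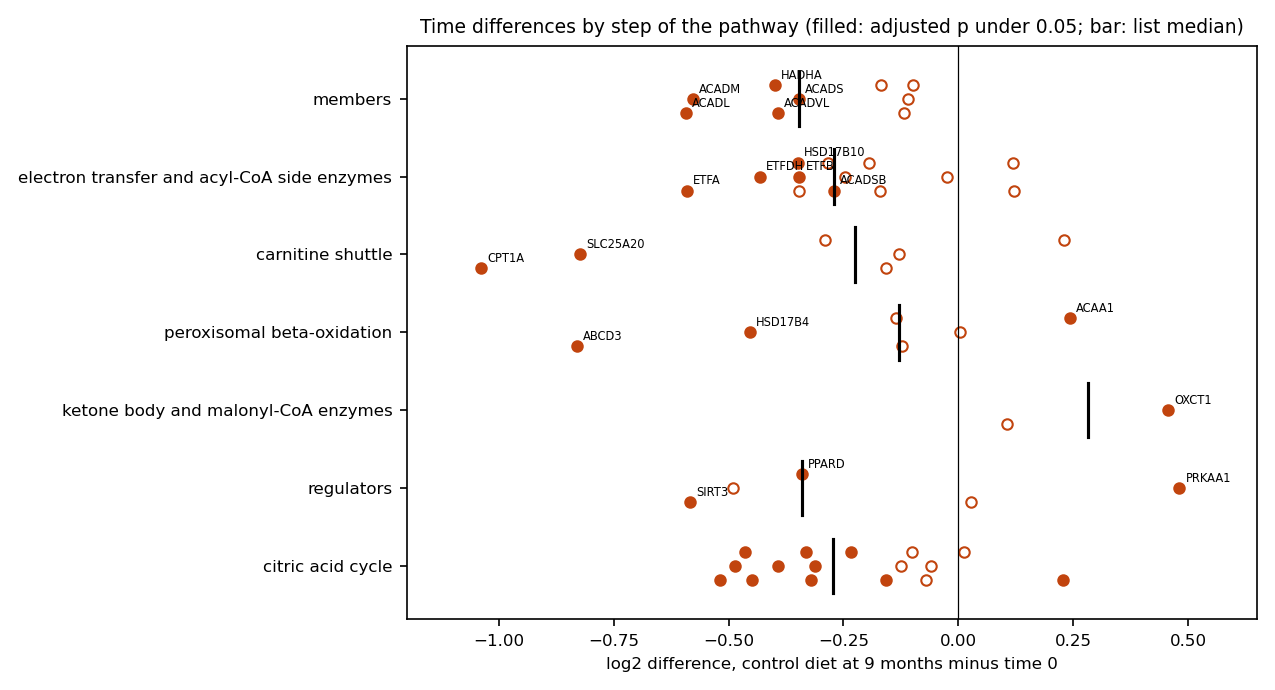
Log2 difference between the control diet at 9 months and time 0 (x axis) for the brightest probe set of each gene, by list (y axis), with filled points past the threshold, gene names beside them outside the citric acid cycle, and a bar at each list's median. The medians of the enzymes (-0.35), of the electron transfer list (-0.27) and of the citric acid cycle (-0.27) all lie below 0.

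The sexes were compared first at time 0, where 0 of the 12 probe sets passed in limma's test, as did 184 of the 17240 (1.07%); 2 of the 12 had an unadjusted p under 0.05, as did 16.4% of all. HADH came nearest. In females 6, 8, 10, 17 and 20 it was 10.70, 10.72, 10.96, 10.69 and 10.65, and in males 11, 12, 15, 24 and 25 it was 10.31, 10.15, 10.60, 10.51 and 10.45. Every female lay above every male, a separation in this direction seen in 300 probe sets (1.74%). The female minus male difference was 0.34 (SE 0.089, adjusted p = 0.0677), and 0.29 within the 8 arrays of low spike-in. Without male 15, the highest male, it passed (0.39, adjusted p = 0.0414). HADHB Ssc_11785_1_A1_at was 0.13 (SE 0.060, adjusted p = 0.302) and ACADL 0.24 (SE 0.13, adjusted p = 0.380).

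At 9 months, over the 3 diets, 2 of 12 probe sets passed, both of HADHB and both lower in females, where 6.01% of all probe sets passed in either direction. At Ssc_11785_1_A1_at the females on the control diet were 10.67 and 10.46, on the high-fat diet 10.39 and 10.26, and with resveratrol 10.20 and 10.25. The males were 10.59 and 10.65, 10.51 and 10.56, and 10.67 and 10.73 in the same order. On both fat-rich diets each female lay below each male at all 3 probe sets of HADHB, and at ACADL, ACADM, HADH and ACAA2, 7 of 12 probe sets against 13.2% of all. ACADVL Ssc_16637_1_S1_at parted the other way on both. Its females were 9.04 and 9.02 against males at 8.88 and 8.97 on high-fat. With resveratrol they were 9.05 and 9.15 against 8.94 and 8.75. The share of all probe sets parting in that direction was not counted. On the control diet each female lay below each male at 4 of 12, against 12.9% of all. These were ACADVL Ssc_16637_1_S1_at, ACADS, HADHA and HADHB Ssc_23043_1_S1_at, and only the last was among the 7 above. The female minus male difference was -0.25 (SE 0.055, adjusted p = 0.0155) at Ssc_11785_1_A1_at, -0.23 (SE 0.065, adjusted p = 0.0465) at Ssc_11785_2_A1_at, and -0.24 (SE 0.073, adjusted p = 0.0593) at Ssc_23043_1_S1_at. By diet, the first was -0.05 on control, -0.21 on high-fat and -0.48 with resveratrol.

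The other members did not pass at 9 months, and their signs were mixed. HADH was -0.25 (SE 0.081, adjusted p = 0.0749), with females at 10.40 and 10.23 on control, 9.97 and 10.03 on high-fat and 9.97 and 10.12 with resveratrol, and males at 10.38 and 10.62, 10.25 and 10.22, and 10.38 and 10.37. Next came ACADL at -0.36 (SE 0.12, adjusted p = 0.0816), ACAA2 at -0.22 (SE 0.086, adjusted p = 0.141) and ECHS1, higher in females, at 0.13 (SE 0.061, adjusted p = 0.230). ACADS (0.11) and both ACADVL probe sets (0.061 and 0.0996) were positive as well, so 8 of 12 differences were negative. Over all 12 arrays the sexes overlapped for every member, and 0.458% of all probe sets were lower in females without overlap.

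The 9-month calls rest on few arrays. HADHB Ssc_11785_1_A1_at missed the threshold without control female 8 (-0.21, adjusted p = 0.0583) or resveratrol female 21 (-0.24, adjusted p = 0.0503). HADHB Ssc_11785_2_A1_at passed in 2 of 12 such fits only, those without control male 16 or high-fat male 26. Without male 16, HADH (-0.29, adjusted p = 0.0439) and ACADL (-0.49, adjusted p = 0.0136) passed. Fitted to the 9-month arrays alone, 0 of 12 probe sets passed, and 4.44% of all did; the differences were the same in that fit, with adjusted p = 0.0674 and 0.0816 at these HADHB probe sets. Within the labelling sets, HADHB Ssc_11785_1_A1_at was -0.17 in the 7 arrays of lower spike-in and -0.32 in the 5 of higher spike-in.

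The cell mix differed between the sexes at 9 months as well. The monocyte minus T cell balance was -1.67 and -1.77 in high-fat females against -0.99 and -1.39 in high-fat males, and -1.83 and -1.72 in resveratrol females against -0.59 and -0.52 in resveratrol males. Lower in females were 4 of 10 monocyte genes (median -0.53), 2 of 5 granulocyte genes and 2 of 3 erythroid genes, and higher were CD79B (0.97) and 1 of 8 T cell genes. With the balance as a covariate HADHB Ssc_11785_1_A1_at was -0.19 (adjusted p = 0.734), and 15 probe sets passed in all. The part of the cell mix in these differences was not tested beyond this value.

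The change in the sex difference between time 0 and 9 months, over the 3 diets, was tested as well. It passed for 4 of 12 probe sets, against 7.34% of all: HADH (0.59, SE 0.12, adjusted p = 0.00918), HADHB Ssc_11785_1_A1_at (0.38, SE 0.082, adjusted p = 0.0129), HADHB Ssc_11785_2_A1_at (0.34, SE 0.096, adjusted p = 0.0386) and ACADL (0.60, SE 0.18, adjusted p = 0.0478). Here a positive value says that females stood higher relative to males at time 0 than at 9 months. The HADHB probe sets read 1 gene and are not separate evidence. HADHB Ssc_23043_1_S1_at was 0.33 (SE 0.11, adjusted p = 0.0692) and HADHA 0.24 (SE 0.12, adjusted p = 0.236). On the control diet alone, the female minus male values at 9 months were -0.18 for HADH, -0.05 and 0.010 for these HADHB probe sets and 0.027 for ACADL. On the high-fat diet they were -0.23, -0.21, -0.24 and -0.61, and with resveratrol -0.33, -0.48, -0.45 and -0.51. Of these 4, HADH and HADHB Ssc_11785_1_A1_at had a sign on the control diet opposite to that at time 0. These 2 passed in all 22 fits that left out 1 array, from 0.53 to 0.64 and from 0.34 to 0.41, with labelling set as a fixed block, and without the 2 time 0 females of high spike-in. ACADL passed in 4 of those 22 fits and HADHB Ssc_11785_2_A1_at in 7. With the monocyte minus T cell balance as a covariate, 0 members passed, HADH was 0.44 (adjusted p = 0.380), and 0 of all 17240 probe sets passed.

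**Figure D4:**
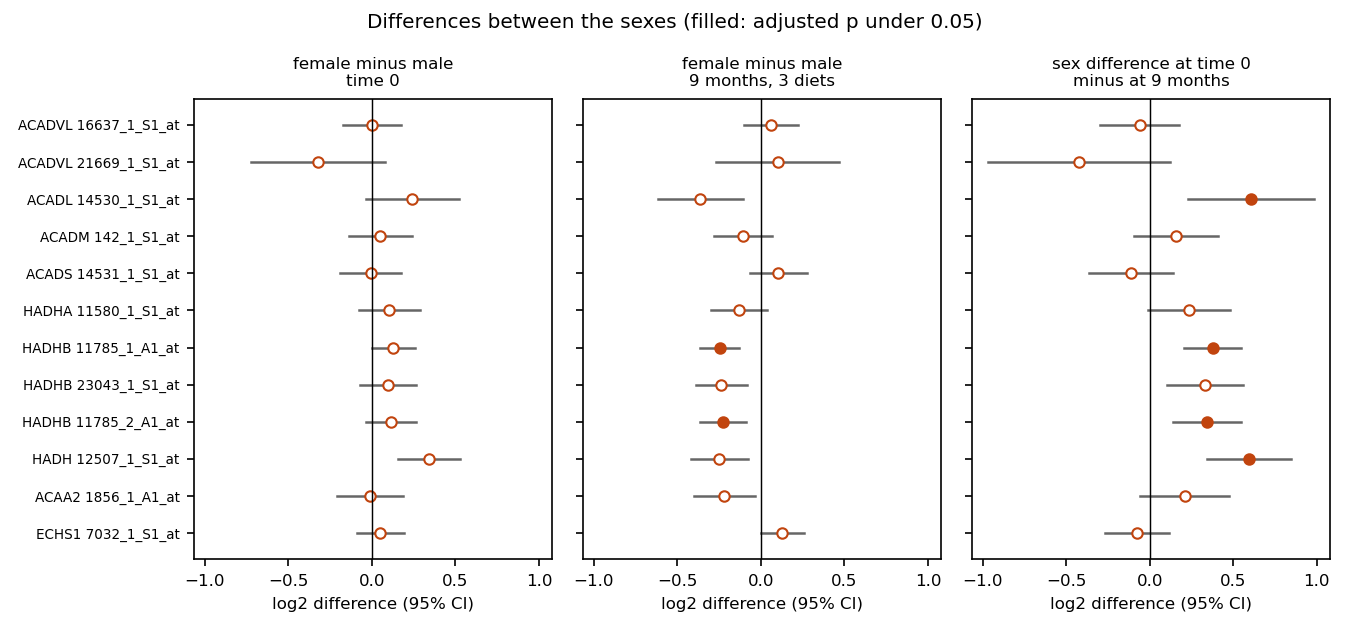
Female minus male log2 differences (x axis) with 95% confidence intervals for the 12 probe sets (y axis) at time 0, at 9 months over the 3 diets, and the first minus the second, with filled points past the threshold. HADH, HADHB and ACADL lie right of 0 at time 0 and left of it at 9 months.

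Around the cycle, 1 of 48 genes (2.08%) differed by sex at time 0, against 1.07% of all probe sets. At 9 months 4 of 48 (8.33%) did, against 7.92% of all genes. At time 0 CPT1A was the 1 gene of 6 in the shuttle to pass, lower in females (-1.16, adjusted p = 1.71e-06). At 9 months DECR1, an enzyme for unsaturated chains, was lower in females (-0.60, adjusted p = 0.0347), as were OXCT1 (-0.41, adjusted p = 0.0434) and SDHB, the iron-sulphur subunit of succinate dehydrogenase (-0.23, adjusted p = 0.0193), and PPARD was higher (0.32, adjusted p = 0.0488). DECR1 passed in 3 of 12 fits that left out 1 array, OXCT1 and PPARD in 2 each and SDHB in 7. With the balance as a covariate DECR1 was -0.0078 (adjusted p = 0.999), OXCT1 -0.14 (adjusted p = 0.951), PPARD 0.11 (adjusted p = 0.948) and SDHB -0.21 (adjusted p = 0.724). The sex difference itself changed with time for 3 of 48 genes (6.25%), against 7.34% of all probe sets. These were CPT1A (-0.97, adjusted p = 0.00254), ACAA1 (0.37, adjusted p = 0.0192) and SDHB (0.38, adjusted p = 0.0122), each in all 22 fits that left out 1 array. With the balance as a covariate they were -0.74 (adjusted p = 0.233), 0.45 (adjusted p = 0.250) and 0.34 (adjusted p = 0.337). With labelling set as a fixed block ACAA1 was 0.33 (adjusted p = 0.0671).

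For the high-fat diet against the control diet, 0 of the 12 probe sets passed in limma's test. The background was the same, with 0 of 17240 (0%) passing and 1562 at an unadjusted p under 0.05, of which 0 were members. The 9 genes had a median difference of -0.02 against -0.01 over all genes. HADHB Ssc_23043_1_S1_at (-0.22, SE 0.11, adjusted p = 0.566) and HADH (-0.29, SE 0.14, adjusted p = 0.569) had the smallest p. The 95% interval of HADH ran from -0.59 to 0.01. ECHS1 was -0.16 (SE 0.087, adjusted p = 0.637) and ACADL 0.23 (SE 0.19, adjusted p = 0.784). For 0 of the 12 did the diets part without overlap, as 5.05% of all probe sets did. Of the monocyte markers, 10 of 10 had negative differences (median -0.43), and 0 passed.

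Adding resveratrol to the high-fat diet also gave 0 of 12, with 0 of 17240 (0%) passing and 1143 at an unadjusted p under 0.05. ACADM had the smallest p, at -0.18 (SE 0.11, adjusted p = 0.807, 95% interval -0.40 to 0.03). Set against the control diet, the resveratrol group gave 0 of 12 as well, with 0 of 17240 (0%) passing and 664 at an unadjusted p under 0.05. ECHS1 (-0.12, SE 0.087, adjusted p = 1.00) and HADH (-0.19, SE 0.14, adjusted p = 1.00) had the smallest p there. No member parted the groups in either comparison, where 3.81% and 1.53% of all probe sets did. These diet comparisons share their arrays, so their values are not independent of each other.

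None of the 48 genes of the other pathway lists passed for a diet in this fit, where limma called 0. CPT1A came nearest: it was 1.19 higher on the high-fat than on the control diet (SE 0.21, adjusted p = 0.0996) and 1.06 higher with resveratrol than on the control diet (SE 0.21, adjusted p = 1.00), without overlap in either. With 8 group means in place of an additive term for sex, it passed in both (adjusted p = 4.80e-05 and 0.000514). It also passed on the high-fat diet with array weights (adjusted p = 0.0121), a fit that called 68 of all probe sets and 0 members, and without control female 8 (adjusted p = 0.0439).

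Whether a diet acted differently in the sexes was tested last. The high-fat effect in females minus that in males gave 0 of 12 members in limma, where 1 of 17240 probe sets (0.00580%) passed and 1 member had an unadjusted p under 0.05, as did 11.7% of all probe sets. That member was ACADL, at -0.63 (SE 0.30, adjusted p = 0.426). For resveratrol the counts were 0 of 12 members and 2 of 17240 (0.0116%), with 0 members at an unadjusted p under 0.05. HADHB Ssc_11785_1_A1_at was -0.27 (SE 0.14, adjusted p = 0.842). Each of these contrasts rests on 2 arrays per sex and diet.

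Members did not rise and fall as 1 block from array to array. After centring on the 8 groups, the 36 pairs of genes had a median r of -0.10 over the 22 arrays, from -0.63 to 0.68, and 16 pairs were positive. Centring leaves fewer than 22 of these deviations free. The closest were ACADL with HADH (0.68), ACADVL with HADHA (0.63), ACADVL with ACADS (0.63) and HADHB with HADH (0.57). The most opposed were ACADL with ACADS (-0.63) and ACADL with ACADVL (-0.58), all of them acyl-CoA dehydrogenases. These values describe arrays that share cell mix, RNA quality and labelling, which can move genes together.

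HADHA and HADHB were set against each other within each time, as deviations from the mean of their condition and sex. At time 0 Pearson's r was -0.04 and Spearman's rho -0.07 (n = 10 arrays, permutation p = 0.921 and 0.865). At 9 months r was 0.12 and rho -0.07 (n = 12 arrays, permutation p = 0.699 and 0.833). Adjusted over the 2 times, both p for r were 0.921. With 2 arrays per group at 9 months, the 12 deviations are mirrored pairs, so only 6 are free (8 at time 0), and a permutation over all arrays treats them as more. Reordering HADHB only among arrays of the same group gave exact p = 0.924 at time 0 and 1.00 at 9 months for r. Without the 2 arrays farthest from the HADHA median, r was -0.04 and 0.32, and without control female 18 or 8, which drops that pair, r at 9 months was -0.60. With HADHB Ssc_11785_2_A1_at, r was -0.54 and -0.50, with exact p within groups of 0.119 and 0.156. At this probe set, r at time 0 was -0.89 without the 2 farthest arrays, and -0.63 after quantile normalization (permutation p = 0.0479, adjusted over the 2 times 0.0736, exact p within groups 0.0610). The HADHB probe sets were themselves only loosely tied over the 22 arrays: Ssc_11785_1_A1_at had r = 0.59 with Ssc_23043_1_S1_at and 0.18 with Ssc_11785_2_A1_at, and the last pair had r = -0.06.

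For each member, the gene whose centred values over the 22 arrays were most like its own lay outside the pathway lists. For ACADVL it was SUMO3 (r = 0.91), for ACADM SMARCA2 (0.91), for ACADL UGP2 (0.87), for ACADS NAPRT (0.86) and for HADHA PFKP (0.85). For HADHB it was BCAT1 (0.84), for HADH STX6 (0.88), for ACAA2 UBE2E3 (0.88) and for ECHS1 SGTA (0.88). Members were left out of this search, and the highest r between 2 of them was 0.68. Each value was the highest of the correlations with all other genes among the 5906 tested, so a high value is no measure of a tie.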

How the data were processed

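The authors deposited 1 intensity per probe set and array, not yet log-transformed, made with GCOS, RMA and Affymetrix Expression Console 1.1, per the submitters' processing notes; RMA pools probes of a set and equalises the arrays' distributions, which can shrink small differences. All 22 columns were used. The log2 was taken after a floor of 1. Of 24123 probe sets, 124 were controls, and 17240 were tested (log2 above 5 in at least 2 arrays). Symbols came from the array's annotation; 13732 probe sets had none and 198 had several.

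Tests used limma 3.58.1 in R 4.3.3, two-sided, with Benjamini-Hochberg adjustment over all probe sets tested and a threshold of 0.05. For time and diet the model held condition plus sex, without their interaction, over all 22 arrays; for the sexes it held 8 group means. Standard deviations and p-values measure the spread between pigs. The scripts were tested on simulated data.

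The members, pathway lists, marker lists and tests were chosen with earlier results of these data known. Named beside the members were, per list and comparison, up to 5 passing genes of smallest p, CPT1A, and the gene most like each member; where no gene of a list passed, the gene of smallest p could be named.

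Pigs 8 and 25 were sampled at both times. Their group-centred profiles at the 2 times had r = -0.056 and 0.199, against highest values of 0.348 and 0.198 with another pig, so pairing rests on the labels.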

Additional observations from a re-analysis of the deposited data

Results flagged for a closer look

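In the group of time 0 females, HADH in pig 10 stood apart at 10.96, above the next value of 10.72, a gap of 0.800 of the group's range (n = 5). This was the 1 such value among 60 groups of 4 to 5 arrays examined over the 12 probe sets, and chance gives about 1 in 20. Pig 10 was 1 of the 2 time 0 females of high spike-in.

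The female minus male difference at time 0 differed from that at 9 months, by a test of the difference itself, for HADH (0.59), HADHB at Ssc_11785_1_A1_at (0.38) and Ssc_11785_2_A1_at (0.34), and ACADL (0.60). At time 0 the differences were 0.34, 0.13, 0.12 and 0.24, and at 9 months -0.25, -0.25, -0.23 and -0.36, in the same order.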

How the results depend on the processing

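Of 108 member differences (12 probe sets in 9 comparisons), 39 changed sign under at least 1 alternative; 0 of these passed in either fit, and 11 passed in all as reported. For time, the count of 5 members became 9 against the mean of the 3 diets (8547 of all 17240 probe sets called, against 6026), an alternative chosen after seeing the data, as were the actin covariate, the reordering within groups for HADHA and HADHB, and the fit without the 2 time 0 females of high spike-in. The time count was 6 with the monocyte minus T cell balance as a covariate (33.0% of all probe sets called). It was 6 without those 2 females (34.6%), and ran from 4 to 5 leaving out 1 array. For the sexes at 9 months, the count of 2 became 0 with the 9-month arrays alone, 0 with the monocyte minus T cell balance as a covariate, 1 with no filter and 1 with the brightest probe set per gene, was 3 with the stricter filter, with arrays centred on their median, with log2 of value plus 16 and with trend and robust fitting, and ran from 0 to 4 leaving out 1 array. For the sexes at time 0 it ran from 0 to 1. For the change of the sex difference, the count of 4 became 2 with labelling set as a fixed block, 2 with the actin covariate, 2 without the 2 females, and 0 with the balance, and ran from 2 to 4 leaving out 1 array. The cause of these changes was not tested.

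Among the differences given in the report, signs turned as follows, none of them in a difference that passed. The largest of all 39 was ACADVL Ssc_21669_1_S1_at between the sexes at time 0, -0.32 over all arrays and 0.015 within those of low spike-in. HADHB Ssc_11785_2_A1_at for time was 0.0124 with quantile normalization, 0.0010 with arrays centred on their median, 0.0280 with array weights, 0.0205 without the 2 females, and from -0.0577 to 0.0073 leaving out 1 array. HADHB Ssc_23043_1_S1_at for time was -0.0684 with the balance and -0.0381 against the 3 diets. ACADVL Ssc_21669_1_S1_at for time was 0.0439 with the balance and 0.0360 with the actin covariate. With the balance, ECHS1 was 0.0176 for time and -0.0241 for the sexes at 9 months, and HADHB Ssc_11785_1_A1_at was 0.0072 for the high-fat diet. The correlation of HADHA with HADHB was 0.31 at time 0 with Ssc_23043_1_S1_at (0.25 after quantile normalization) and -0.50 at 9 months with Ssc_11785_2_A1_at (-0.54 after quantile normalization), and leaving out 1 array it ran from -0.44 to 0.28 at time 0 and from -0.60 to 0.32 at 9 months, where leaving out either array of a group has the same effect by construction.

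With pig as a random replicate block (consensus correlation -0.176 and -0.0181 in the 2 fits), the counts were 5 for time, 0 and 2 for the sexes at time 0 and 9 months, 4 for their change and 0 for each diet comparison, as without it. The number of arrays, 2 per sex and diet, limits what any diet comparison can show.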
